A study of Mus with 8 samples.

Results

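The measurements concern 10 genes of the cytochrome P450 family 4 in regenerating mouse liver with and without LKB1: the Cyp4a genes Cyp4a10, Cyp4a12a, Cyp4a12b, Cyp4a14, Cyp4a31 and Cyp4a32, the Cyp4f genes Cyp4f13, Cyp4f14 and Cyp4f15, and Cyp4v3. They were taken by gene symbol from an expression array table, and all 10 were found among 23185 rows with 1 gene symbol each. The Stk11 gene encodes LKB1, the kinase that switches on AMPK and related kinases. Livers labelled LKB1 KO (4 arrays) were set against livers labelled Ctrl (4 arrays), and all 8 were taken 48 h after partial hepatectomy, the removal of part of the liver, after which the rest grows back. The mouse strain, sex, age and feeding, and the allele or Cre line behind the loss of LKB1, are not named in the labels. Each value is 1 log2 expression value per gene and array, as the authors normalized it, so a difference of 1 log2 unit is a 2-fold change.

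Enzymes of this family sit in the membrane of the endoplasmic reticulum and add a hydroxyl group to the last carbon of a fatty acid, the omega end. The product is oxidised further to a dicarboxylic acid, which peroxisomes shorten. Cyp4a10 and Cyp4a14 are classical targets of the fatty acid receptor PPAR-alpha and rise in the liver of fasted mice, while Cyp4a12a is male-biased in mouse liver and kidney and hydroxylates arachidonic acid. Cyp4f enzymes act on longer and more complex lipids, among them leukotrienes and the side chains of vitamins E and K. On such arrays the probes of closely related genes, Cyp4a12a with Cyp4a12b and Cyp4a10 with Cyp4a31 and Cyp4a32, can pick up each other's transcripts, so values within these groups are uncertain.

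The array medians over the named genes lay between 3.75 and 3.96 log2 units. LKB1 KO 2 and Ctrl 4 stood farthest from their own groups (mean correlation 0.974 and 0.976, against at least 0.979 for the other arrays). Nothing in the labels says that the samples of a group are separate animals, so the spread behind the p-values may in part be technical, and 4 arrays a group set the precision. As a gauge of background, the mean level of 1354 olfactory and vomeronasal receptor genes had a 95th percentile of 3.73 log2 units. Stk11 stood at 3.98, 3.97, 4.84 and 4.22 in LKB1 KO 1 to 4, against 6.69, 6.68, 6.46 and 6.76 in Ctrl 1 to 4. Every LKB1 KO array thus lay below every Ctrl array, with a difference of -2.39 (SE 0.19, limma adjusted p = 0.000453). Where its probes lie relative to the deleted part is unknown here.

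Of the 10 genes, those that passed the test were lower in LKB1 KO. Cyp4a12a was 8.05-fold lower in LKB1 KO livers and Cyp4f14 was 1.93-fold lower, and both passed the test. Cyp4a10 had a mean 7.87-fold higher in LKB1 KO livers, with groups that did not overlap, but it did not pass (adjusted p = 0.0697). In all, 2 of the 10 genes fell, 0 rose and 8 did not pass the threshold of 0.05, where p was adjusted over all 23185 genes in limma. At an unadjusted p under 0.05 there were 5, Cyp4a10 on the higher side and Cyp4a12a, Cyp4f13, Cyp4f14 and Cyp4v3 on the lower. Over all genes, 1.98% passed in either direction, 0.487% higher and 1.49% lower, and 13.4% had an unadjusted p under 0.05. The 458 genes past the threshold were 113 higher and 345 lower, a split that became 198 higher and 340 lower after quantile normalization. The median difference of the 10 genes was -0.37 log2 units, beside 0.02 over all genes. Their differences ran from -3.01 to 2.98, and 4 of the 10 had a higher mean in LKB1 KO. The groups did not overlap in 5 of the 10, the same genes as at the unadjusted threshold, beside 8.84% of all genes.

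**Figure D1:**
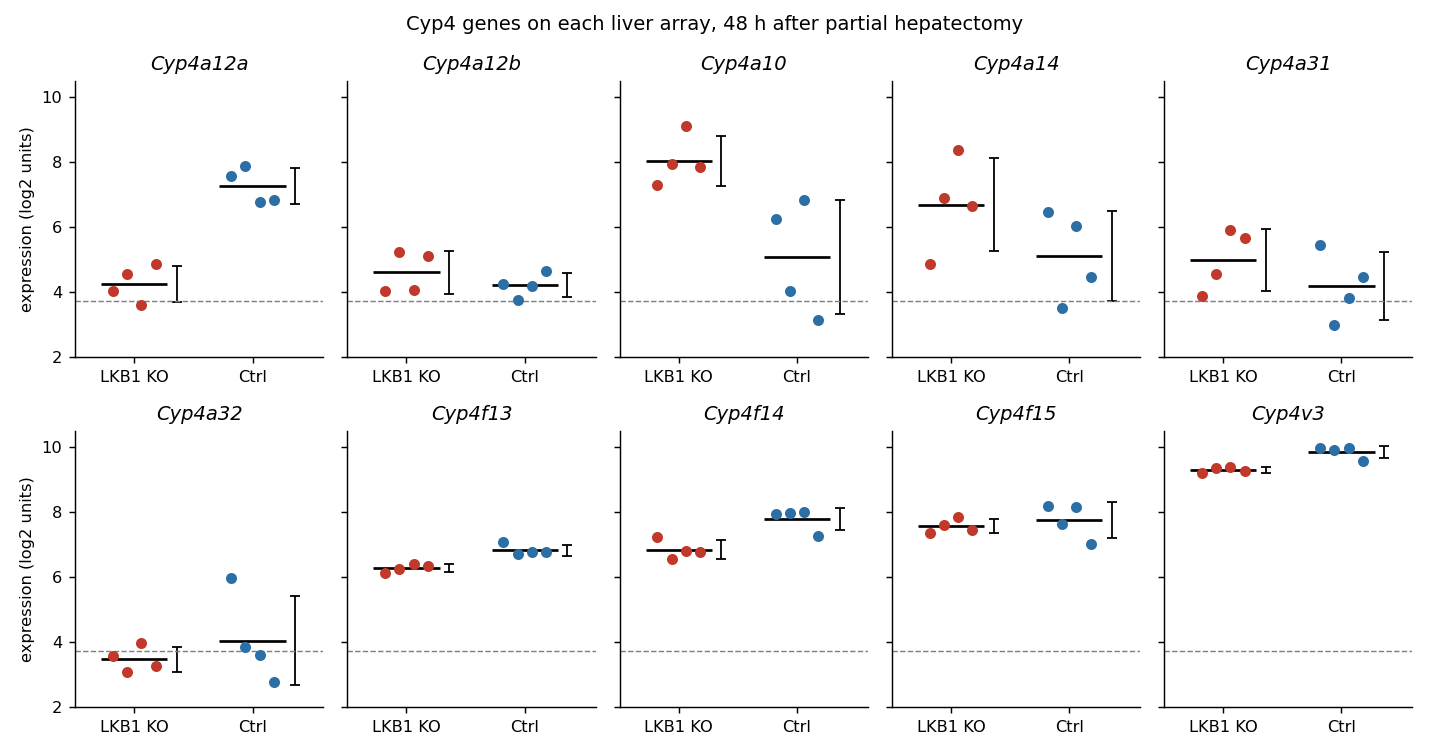
Log2 expression (vertical axis) of the 10 Cyp4 genes on each array, LKB1 KO at the left and Ctrl at the right of each panel. Points are arrays, horizontal lines are means, bars beside them are SD (n = 4), and the dashed line is the background gauge of 3.73 log2 units. Cyp4a12a stood at 3.60 to 4.86 in LKB1 KO and at 6.79 to 7.87 in Ctrl, whereas the Ctrl arrays of Cyp4a10 spread from 3.16 to 6.84.

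Cyp4a12a had log2 values of 4.03, 4.56, 3.60 and 4.86 in LKB1 KO 1 to 4, against 7.58, 7.87, 6.79 and 6.83 in Ctrl 1 to 4. The groups were far apart, with the highest LKB1 KO array still below the lowest Ctrl array. Means were 4.26 ± 0.56 in LKB1 KO and 7.27 ± 0.54 in Ctrl (SD, n = 4), a difference of -3.01 (SE 0.31, 95% confidence interval -3.70 to -2.32, limma adjusted p = 0.00155). Of the 23185 genes, 7 had a lower difference. With single arrays left out the difference stayed between -3.21 and -2.79 and the adjusted p at or below 0.00782. LKB1 KO 3 lay below the background gauge, and the log2 values of dim genes are compressed, so the size of the fall is uncertain.

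Cyp4a12b, the closest relative of Cyp4a12a in the family, stood at 4.04, 5.25, 4.06 and 5.13 in LKB1 KO 1 to 4. In Ctrl 1 to 4 it stood at 4.24, 3.75, 4.19 and 4.66. The groups overlapped, and the difference was 0.41 (SE 0.30, 95% confidence interval -0.26 to 1.08, adjusted p = 0.630). The Ctrl mean of Cyp4a12b was 4.21, close to the background gauge of 3.73. A fall of the size seen for Cyp4a12a could hardly have shown, so the interval cannot decide whether one took place. Taken within each array, Cyp4a12a minus Cyp4a12b averaged -0.36 ± 0.29 in LKB1 KO and 3.06 ± 0.85 in Ctrl (SD, n = 4). The change of that contrast, -3.42, had an exact two-sided permutation p of 0.0286, the smallest that 4 against 4 arrays can give, and 0.0857 adjusted over the 45 pairs of the 10 genes. Signals of different probes do not give the ratio of the transcripts, and the low level of Cyp4a12b limits this contrast in the same way.

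The genes known as PPAR-alpha targets varied widely between arrays. Cyp4a10 stood at 7.29, 7.95, 9.12 and 7.85 in LKB1 KO 1 to 4, against 6.25, 4.05, 6.84 and 3.16 in Ctrl 1 to 4. All LKB1 KO arrays lay above all Ctrl arrays, but Ctrl 1 and Ctrl 3 were well above Ctrl 2 and Ctrl 4, and Ctrl 4 was below the background gauge. Means were 8.05 ± 0.77 in LKB1 KO and 5.08 ± 1.75 in Ctrl (SD, n = 4), a difference of 2.98 (SE 0.73, 95% confidence interval 1.37 to 4.58, adjusted p = 0.0697). The exact permutation p of this gene alone was 0.0286. Only 3 genes had a larger positive difference. Without Ctrl 3 the difference was 3.57 and passed (adjusted p = 0.0294), and without any other single array it lay between 2.34 and 3.37 and did not pass (adjusted p from 0.0813 to 0.193).

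Cyp4a14, the neighbour of Cyp4a10 in the mouse genome, had log2 values of 4.87, 6.89, 8.37 and 6.65 in LKB1 KO 1 to 4, against 6.48, 3.51, 6.03 and 4.47 in Ctrl 1 to 4. The groups overlapped through LKB1 KO 1, which lay below Ctrl 1 and Ctrl 3. The difference was 1.57 (SE 0.76, 95% confidence interval -0.10 to 3.24, adjusted p = 0.410), and it lay between 1.02 and 2.18 with single arrays left out. Within LKB1 KO the arrays had the same order for Cyp4a14 as for Cyp4a10, LKB1 KO 3 being highest and LKB1 KO 1 lowest. In Ctrl, arrays 1 and 3 were the high ones for both genes. Cyp4a10 minus Cyp4a14 within each array changed by 1.40 (exact permutation p = 0.0571, adjusted p = 0.148 over the 45 pairs), which does not show that these genes respond alike.

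Cyp4a31, a close relative of Cyp4a10, stood at 3.87, 4.56, 5.91 and 5.67 in LKB1 KO 1 to 4 and at 5.44, 2.98, 3.83 and 4.48 in Ctrl 1 to 4. The difference was 0.82 (SE 0.54, adjusted p = 0.584), and the groups overlapped over most of their range. Cyp4a32 stood at 3.56, 3.06, 3.96 and 3.26 in LKB1 KO 1 to 4 and at 5.97, 3.84, 3.61 and 2.75 in Ctrl 1 to 4. It lay below the gauge in 3 LKB1 KO and 2 Ctrl arrays, and Ctrl 1 stood apart. Its difference was -0.58 (SE 0.54, adjusted p = 0.714) and turned to 0.0599 without Ctrl 1. LKB1 KO 3 was the highest LKB1 KO array for Cyp4a10, Cyp4a14, Cyp4a31 and Cyp4a32 alike, and the lowest for Cyp4a12a.

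The Cyp4f genes and Cyp4v3 all had lower means in LKB1 KO, with differences between -0.95 and -0.19. Cyp4f14, which in mice hydroxylates leukotriene B4 and vitamin E, stood at 7.24, 6.55, 6.79 and 6.77 in LKB1 KO 1 to 4, against 7.94, 7.96, 7.99 and 7.27 in Ctrl 1 to 4. LKB1 KO 1 and Ctrl 4 nearly met, at 7.24 and 7.27. Means were 6.84 ± 0.29 in LKB1 KO and 7.79 ± 0.35 in Ctrl (SD, n = 4), a difference of -0.95 (SE 0.20, 95% confidence interval -1.39 to -0.51, limma adjusted p = 0.0378). The call held without LKB1 KO 1 or Ctrl 4 (adjusted p = 0.0395 and 0.0110) and ended without any other single array: without LKB1 KO 2, 3 or 4 the adjusted p was 0.0840, 0.101 and 0.108, and without Ctrl 1, 2 or 3 it was 0.111, 0.120 and 0.0897. The difference itself stayed between -1.12 and -0.85.

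Cyp4f13, which lies beside Cyp4f14 in the genome, had log2 values of 6.14, 6.26, 6.41 and 6.32 in LKB1 KO 1 to 4, against 7.07, 6.72, 6.75 and 6.76 in Ctrl 1 to 4. The groups did not overlap, and the difference of -0.54 (SE 0.13, 95% confidence interval -0.83 to -0.26) had an adjusted p of 0.0640, between 0.0931 and 0.176 with single arrays left out. Cyp4f15, a further Cyp4f hydroxylase, stood at 7.36, 7.59, 7.85 and 7.44 in LKB1 KO 1 to 4 and at 8.19, 7.61, 8.17 and 7.02 in Ctrl 1 to 4. All 4 LKB1 KO arrays lay inside the range of the Ctrl arrays. Its difference was -0.19 (SE 0.25, 95% confidence interval -0.73 to 0.36, adjusted p = 0.808). Cyp4f14 minus Cyp4f15 within each array changed by -0.76 (exact permutation p = 0.0857, adjusted p = 0.148), which leaves unsettled whether their responses differ.

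Cyp4v3, the mouse counterpart of human CYP4V2, is a hydroxylase of medium-chain fatty acids. It stood at 9.20, 9.35, 9.38 and 9.25 in LKB1 KO 1 to 4, against 9.96, 9.91, 9.96 and 9.56 in Ctrl 1 to 4. The groups did not overlap, with Ctrl 4 the lowest Ctrl array. Means were 9.29 ± 0.09 in LKB1 KO and 9.85 ± 0.20 in Ctrl (SD, n = 4), a difference of -0.55 (SE 0.13, 95% confidence interval -0.85 to -0.26, adjusted p = 0.0643). It passed without Ctrl 4 (difference -0.65, adjusted p = 0.0290) and did not pass without any other single array (adjusted p from 0.0871 to 0.178). Without both LKB1 KO 2 and Ctrl 4, a setting added after the arrays had been seen, 3 of the 10 genes were lower and 0 higher: Cyp4a12a, Cyp4f14 (adjusted p = 0.0188) and Cyp4v3 (adjusted p = 0.0342).

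**Figure D2:**
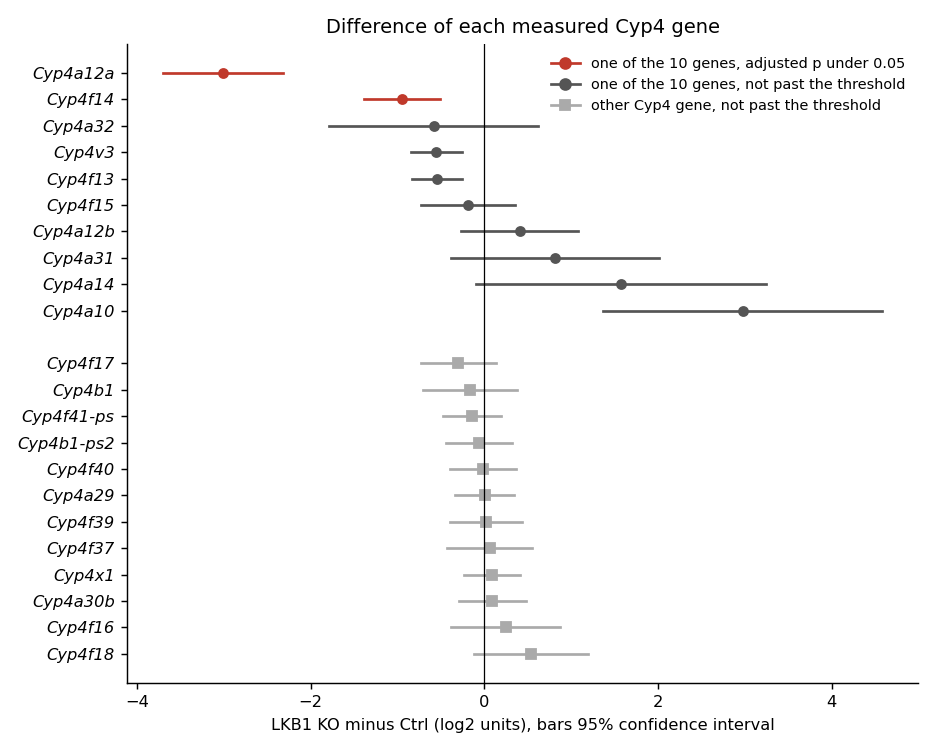
Difference LKB1 KO minus Ctrl in log2 units (horizontal axis) with its 95% confidence interval for the 10 Cyp4 genes (circles, red where the adjusted p was under 0.05) and for the 12 other measured Cyp4 genes (squares). The 10 genes run from -3.01 for Cyp4a12a to 2.98 for Cyp4a10, and the intervals of all 12 others include 0.

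The 12 other measured genes and pseudogenes of the Cyp4 family gave no calls. None passed in limma or had an unadjusted p under 0.05. Their differences lay between -0.30 for Cyp4f17 and 0.54 for Cyp4f18, with a median of 0.01. Means in LKB1 KO were higher for 7 and lower for 5. Cyp4f16, the brightest of the 12 at a mean level of 5.87, had a difference of 0.25 (limma adjusted p = 0.776). The mean level of 8 of the 12 lay below the background gauge, while that of all 10 genes described here lay above it. Below the gauge a fall could hardly be seen, and the size of a rise would be compressed. For Cyp4f18, a leukotriene B4 hydroxylase of mouse myeloid cells, LKB1 KO 2 stood at 5.58 and the other LKB1 KO arrays between 3.98 and 4.48, against 3.89 to 4.12 in Ctrl.

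Likeness between genes was measured as the root mean square difference of their log2 values over the 8 arrays, each gene centred on its own mean. Among the 45 pairs the smallest was 0.14 log2 units, for Cyp4f13 and Cyp4v3, and the largest 3.29, for Cyp4a10 and Cyp4a12a. Genes that vary little come out alike on this measure, and a large difference between the groups dominates it. In 15 of the 45 pairs the within-array contrast did not overlap between the groups, and each of these pairs held Cyp4a10 or Cyp4a12a. Each of these genes separated the groups on its own, with differences of 2.98 and -3.01. The count therefore follows largely from them, and no share over all gene pairs was taken. No pair passed after adjustment over the 45 pairs (smallest adjusted p = 0.0857), and the smallest exact p that 4 against 4 arrays allow is 0.0286. Cyp4a10 minus Cyp4a12a averaged 3.79 ± 1.17 in LKB1 KO and -2.19 ± 1.88 in Ctrl (SD, n = 4), a change of 5.99 log2 units. Over all genes, those most like Cyp4a12a were Csrp3 (0.33), a muscle LIM protein gene, Selenbp2 (0.43), a selenium-binding protein gene, and Saa4 (0.50), a serum amyloid gene. Csrp3 stood at 2.66 to 3.19 in LKB1 KO, below the gauge on all 4 arrays, against 5.78 to 6.88 in Ctrl.

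The genes around the PPAR-alpha pathway did not move one way. Ppara, which encodes the receptor, stood at 5.70, 5.71, 6.15 and 5.43 in LKB1 KO 1 to 4, against 7.41, 6.90, 6.94 and 6.70 in Ctrl 1 to 4. It fell by 1.24 log2 units (SE 0.19, adjusted p = 0.00895), while the mean of Cyp4a10 was higher in the same livers. Of 20 measured nuclear receptors and coregulators, 1 rose and 4 fell, with a median of -0.17. For this and the list counts below, the shares over all genes were 1.98% past the threshold and 13.4% at an unadjusted p under 0.05. The coactivator gene Ppargc1a rose (1.34, adjusted p = 0.00401), and Nr1h4, which encodes the bile acid receptor FXR (-1.26, adjusted p = 0.00473), and Nr1i3, which encodes the xenobiotic receptor CAR (-1.05, adjusted p = 0.00324) fell. Without LKB1 KO 2, 2 genes of this list rose.

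Of 30 measured PPAR-alpha targets outside the Cyp4 family, 4 rose and 0 fell, with a median of 0.17 and 21 higher means in LKB1 KO. The thioesterase gene Acot1 stood at 7.08, 7.93, 8.32 and 7.30 in LKB1 KO 1 to 4, against 4.77, 4.96, 6.73 and 5.85 in Ctrl 1 to 4 (2.08, adjusted p = 0.0309). Acot2, a second thioesterase gene, rose by 1.66 (adjusted p = 0.0123), the carnitine acetyltransferase gene Crat by 0.88 (adjusted p = 0.0167) and the lipid droplet coat gene Plin2 by 0.75 (adjusted p = 0.0347). Without LKB1 KO 1, LKB1 KO 3, LKB1 KO 4, Ctrl 1 or Ctrl 2 the count of rises was 1, Acot2. The median deviation of the 30 targets was 0.04, 0.03, 0.34 and 0.07 in LKB1 KO 1 to 4 and -0.05, -0.16, 0.00 and -0.24 in Ctrl 1 to 4. LKB1 KO 3 was thus highest and Ctrl 2 and Ctrl 4 lowest, as they were for Cyp4a10 and Cyp4a14, on a much narrower scale. This is a description of 8 arrays and was not tested.

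**Figure D3:**
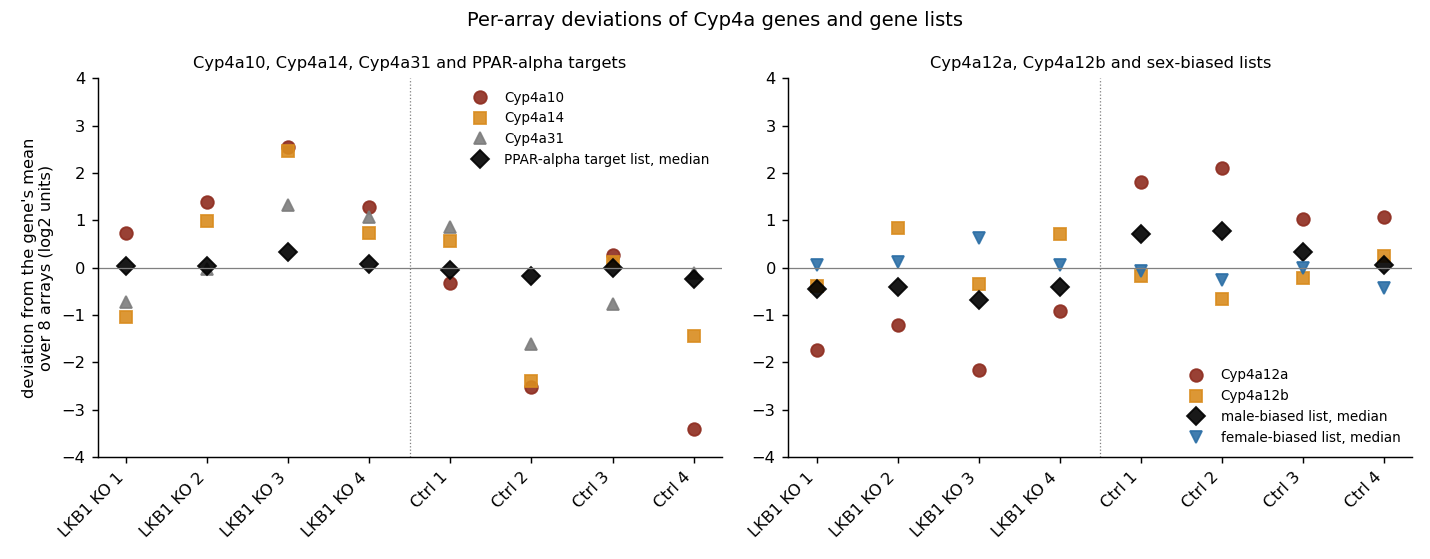
Deviation of each array from the gene's mean over the 8 arrays, in log2 units (vertical axis), with the LKB1 KO arrays left of the dotted line and the Ctrl arrays right of it. Left, Cyp4a10, Cyp4a14, Cyp4a31 and the median of 30 PPAR-alpha targets, highest in LKB1 KO 3. Right, Cyp4a12a, Cyp4a12b and the medians of 21 male-biased and 24 female-biased liver genes. Cyp4a12a and the male-biased median are below 0 in all LKB1 KO arrays and above 0 in all Ctrl arrays.

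Cyp4a12a fell beside other male-biased genes. Of 21 measured male-biased liver genes, with Cyp4a12a itself not on the list, 10 fell and 0 rose, with a median of -1.01. The mean was higher in LKB1 KO for 4 of the 21. The list was chosen with earlier results of these data known, and a link with Cyp4a12a was not tested. Examples are the complement gene C6 (-1.77, adjusted p = 0.000947), Keg1 (-2.60, adjusted p = 0.00181), Selenbp2 (-2.71, adjusted p = 0.00287) and the steroid hydroxylase gene Cyp2d9 (-1.42, adjusted p = 0.00452). The median deviation of the male-biased list was -0.46, -0.42, -0.68 and -0.40 in LKB1 KO 1 to 4 and 0.72, 0.78, 0.32 and 0.07 in Ctrl 1 to 4. As for Cyp4a12a, LKB1 KO 3 was lowest and Ctrl 1 and Ctrl 2 were highest. Of 24 measured female-biased genes, 2 rose and 0 fell, with a median of 0.43. The mean was higher in LKB1 KO for 18 and lower for 6, and 9 had a mean level below the gauge. Those that rose were the steroid hydroxylase gene Cyp17a1 (2.83, adjusted p = 0.00542) and Prom1 (2.21, adjusted p = 0.00967). Prom1 lay below the gauge in Ctrl 1 and Ctrl 2 (3.32 and 3.25). Without Ctrl 3 the count of rises was 4.

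The sex-chromosome genes did not separate the groups. Xist, the RNA of the inactive X chromosome, stood at 2.42 to 2.74 in LKB1 KO and at 2.65 to 3.01 in Ctrl, below the gauge on every array, and its antisense partner Tsix stood at 2.44 to 2.79 in LKB1 KO and at 2.35 to 2.84 in Ctrl. The Y-linked genes Kdm5d (4.32 to 5.24 in LKB1 KO, 4.98 to 5.60 in Ctrl), Uty (5.26 to 5.98 in LKB1 KO, 5.62 to 6.24 in Ctrl) and Eif2s3y (6.93 to 7.35 in LKB1 KO, 6.80 to 7.48 in Ctrl) lay above it on every array. All 8 arrays thus showed Y-linked transcripts and no Xist signal above the gauge. Among 13 measured genes of growth hormone signalling and sex-bias regulation, Cux2, a female-biased transcription factor of liver, rose (0.82, adjusted p = 0.0188) and 0 fell, with a median of -0.13. Its call ended without LKB1 KO 3 (adjusted p = 0.0605) or Ctrl 1 (adjusted p = 0.0597). The growth hormone receptor gene Ghr stood at -0.81 (adjusted p = 0.105). Of the 13 genes, 6 had an unadjusted p under 0.05 in limma, beside 13.4% of all genes, and the lowest difference was -1.08. Without Ctrl 4, which was lowest of the Ctrl arrays for Cyp4f14, Cyp4f15 and Cyp4v3 as well, 2 genes of this list fell, Ghr among them (adjusted p = 0.0139).

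The steps after omega-hydroxylation also held rises and falls. Of 21 measured genes of omega-oxidation and peroxisomal dicarboxylate breakdown, 2 rose and 3 fell, with a median of -0.06. The alcohol dehydrogenase gene Adh4 (-1.27, adjusted p = 0.00300) and Cyp2e1, which also hydroxylates fatty acids near their omega end (-1.09, adjusted p = 0.00278), fell, while the peroxisomal CoA hydrolase gene Nudt19 rose (1.17, adjusted p = 0.00530) with Crat. Crat lost its call without LKB1 KO 1, LKB1 KO 3, LKB1 KO 4, Ctrl 1 or Ctrl 2 (adjusted p from 0.0555 to 0.0597). Of 12 measured genes of P450 electron transfer and haem synthesis, none passed. An unadjusted p under 0.05 was found for 2 of them, beside 13.4% of all genes. The reductase gene Cyb5r3 stood at -0.43 (adjusted p = 0.119) and Alas1, the first enzyme of haem synthesis, at 0.43 (adjusted p = 0.361).

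For the lists closest to the Cyp4f substrates, of 25 measured arachidonate epoxygenase, lipoxygenase and leukotriene genes, 1 rose and 1 fell, with a median of -0.19. An unadjusted p under 0.05 was found for 12 of them, beside 13.4% of all genes. Cyp2c55 rose (2.18, adjusted p = 0.0190) and the epoxygenase gene Cyp2j5 fell (-0.75, adjusted p = 0.0289). Cyp2c55 lost its call without LKB1 KO 1, LKB1 KO 3, LKB1 KO 4, Ctrl 1 or Ctrl 2 (adjusted p from 0.0520 to 0.0636) and Cyp2j5 without any array but Ctrl 4 (0.0600 to 0.0960), while without Ctrl 4 the list had 4 falls. Of 8 measured genes of vitamin K and E handling, Ggcx, the vitamin K-dependent carboxylase gene, fell (-0.66, adjusted p = 0.0221), and the call ended without LKB1 KO 1, LKB1 KO 3, LKB1 KO 4, Ctrl 1 or Ctrl 2 (adjusted p from 0.0516 to 0.0716). In that list 3 of 8 had an unadjusted p under 0.05. The quinone reductase gene Nqo1 stood at 1.38 (adjusted p = 0.0755) and passed without Ctrl 3 (adjusted p = 0.0366).

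**Figure D4:**
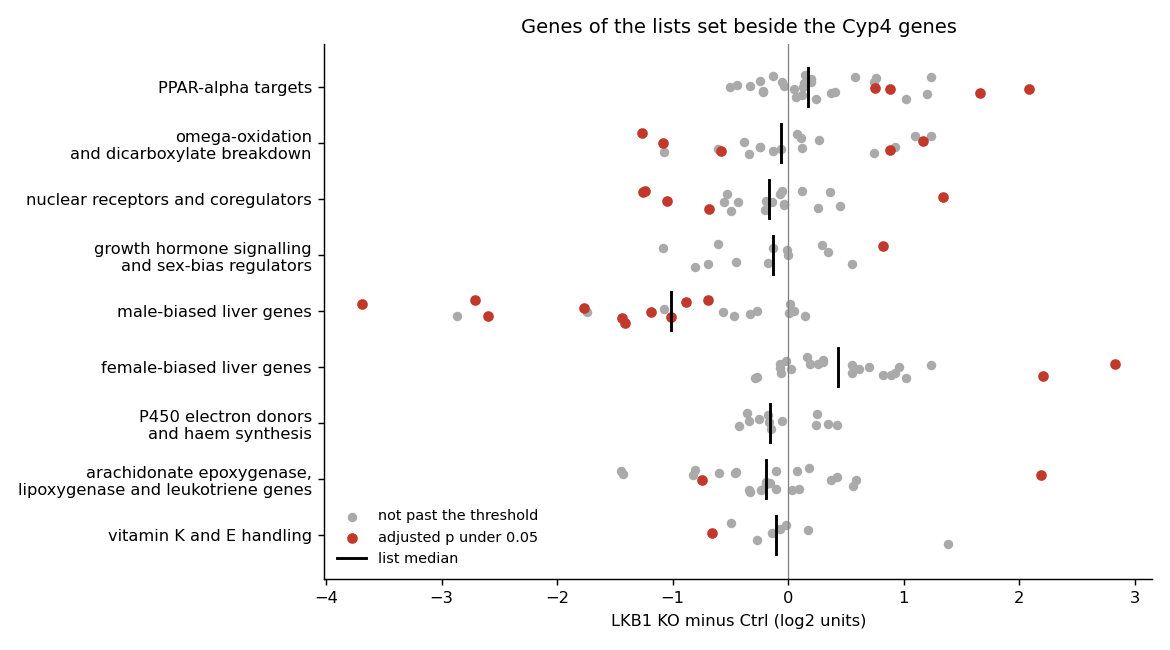
Difference LKB1 KO minus Ctrl in log2 units (horizontal axis) of every measured gene of the 9 lists set beside the Cyp4 genes. Points are genes, red where the adjusted p was under 0.05, and black bars are list medians, the lowest being -1.01 for the male-biased list and the highest 0.43 for the female-biased list.

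Markers of some cell types were lower in LKB1 KO as well. Of 9 measured hepatocyte markers, none passed and 1 had an unadjusted p under 0.05. Means in LKB1 KO were higher for 2 and lower for 7, with a median difference of -0.11. The summed linear level of the 9, in which the brightest weigh most, was 23767 to 25900 in LKB1 KO and 26004 to 28056 in Ctrl. Of 10 endothelial markers, 3 fell and 0 rose, with a summed level of 881 to 1014 in LKB1 KO and 1203 to 1485 in Ctrl. Clec4g (-0.83), Gpr182 (-0.68) and Kdr (-0.72) were those that fell, and 1 fell without LKB1 KO 1, LKB1 KO 3 or Ctrl 2. Of 10 Kupffer cell and macrophage markers 1 fell, Csf1r (-0.78, adjusted p = 0.0378), with a summed level of 773 to 1063 in LKB1 KO and 1025 to 1784 in Ctrl, and that call ended without any array but Ctrl 2 (adjusted p from 0.0514 to 0.110). Of 7 neutrophil markers, 4 had a mean below the gauge, none passed and 3 had an unadjusted p under 0.05. Their summed level, in which S100a8 and S100a9 weigh most, was 215 to 318 in LKB1 KO and 338 to 1083 in Ctrl. Ctrl 4 stood apart, with a median deviation of 1.32 against -0.08 to 0.38 in the other Ctrl arrays. Stellate cell markers had a summed level of 558 to 858 in LKB1 KO and 779 to 998 in Ctrl, ranges that overlap. Of the 10 markers, 2 had a higher and 8 a lower mean in LKB1 KO, with a median of -0.36. None passed, 5 had an unadjusted p under 0.05, and 1 fell without Ctrl 1 or Ctrl 4.

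Of 6 cholangiocyte markers, 3 had a higher and 3 a lower mean in LKB1 KO (median 0.05), and 1 rose, Prom1, which is also on the female-biased list. Their summed level, which includes Prom1, was 147 to 165 in LKB1 KO and 79.8 to 133 in Ctrl. Markers of T and NK cells (7 of 8 with a mean below the gauge), B cells (4 of 5), adipocytes (4 of 5) and kidney tubule (5 of 5) were mostly at background and none passed. At an unadjusted p under 0.05 there were 1, 0, 1 and 1 of these. Of 3 erythroid markers, 2 had a lower and 1 a higher mean in LKB1 KO, with differences from -1.03 to 0.38. Alas2 fell (-1.03, adjusted p = 0.0471), a call that ended without any single array but Ctrl 4 (adjusted p from 0.0571 to 0.141). The part of these shifts in the differences of the Cyp4 genes was not tested. In a bulk sample, fewer cells of a type and less RNA per cell cannot be told apart.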

How the data were processed

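RNA of 8 mouse liver samples was measured on expression arrays, 1 array a sample. The deposited values are log2 intensities that the authors normalized with RMA, and RMA and Partek are the tools in the submitters' processing notes, without versions. The labels do not name the genome build or the annotation behind the gene symbols. Of 25206 rows, 23185 had 1 gene symbol, 0 had several and 2021 had none and were left out. No value was missing.

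The 10 genes and all lists were chosen with earlier results of these data known. limma 3.58.1 in R 4.3.3 was fitted with group as the single term, with Benjamini-Hochberg adjustment over the 23185 genes and a threshold of 0.05, after a test on simulated data. Permutation tests over samples were exact and two-sided. The 10 genes and Stk11 were named throughout. From each list up to 4 genes past the threshold were named by smallest p, at least 1 of the rarer direction, or the 2 with the smallest p where fewer than 2 passed, and all sex-chromosome genes. The 45 within-array contrasts and the fit without LKB1 KO 2 and Ctrl 4 were added after seeing the data. Gene neighbours come from RefSeq's GRCm38.p6 table, in which all 10 genes matched. The samples were treated as unpaired, since no label says what the replicate numbers in the titles mark. The deviations of same-numbered arrays correlated between -0.11 and 0.18, and those of differently numbered arrays between -0.18 and 0.24. With so few arrays, these values cannot settle whether the samples are paired. The alternatives tried were the replicate number as a block, single arrays left out, quantile normalization, median centring, a filter on dim genes, other limma settings, all rows and a threshold of 0.01.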

Additional observations from a re-analysis of the deposited data

Results flagged for a closer look

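Among 126 groups of 4 arrays, for 63 genes, 7 held 1 array far from the other 3 by Dixon's test at the 95% level, which sets the gap to the nearest array against the group's range. Chance gives this in about 1 in 20 groups. Cyp4f14 stood at 7.27 log2 units in Ctrl 4, with the nearest Ctrl array at 7.94. Cyp4v3 stood at 9.56 in Ctrl 4, with the nearest at 9.91. Cyp4f13 stood at 7.07 in Ctrl 1, with the nearest at 6.76. The other 4 were outside the Cyp4 family. Acot2 stood at 3.90 in Ctrl 1 (nearest 4.43), Cd5l at 6.71 in LKB1 KO 4 (nearest 6.27), Rgs5 at 3.84 in LKB1 KO 2 (nearest 4.69) and Colec11 at 5.47 in Ctrl 4 (nearest 6.04).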

How the results depend on the processing

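Cyp4a12a stayed lower in LKB1 KO in every alternative tried and lost its call only without variance moderation (adjusted p = 0.0532). The count of Cyp4 genes higher in LKB1 KO, 0, became 1 (Cyp4a10) with the replicate block, with the dimmest of 3 bins of genes left out and with array weights, and ranged from 0 to 1 with single arrays left out. The count lower, 2, became 1 with the replicate block (Cyp4f14 at adjusted p = 0.0593), 0 without moderation, 1 at a threshold of 0.01, and 3 with a trended robust prior or array weights (Cyp4v3 added, at adjusted p = 0.0219 and 0.0289), and ranged from 1 to 3 with single arrays left out. The 113 genes higher in LKB1 KO became 198 after quantile normalization, 13 without moderation, 254 with array weights and 24 at 0.01, and ranged from 42 to 144 with single arrays left out. The 345 lower became 186 with the replicate block, 84 without moderation and 115 at 0.01, and ranged from 164 to 382. The Cyp4a32 difference ranged from -1.01 (without Ctrl 4) to 0.0599 (without Ctrl 1, the reversed case) with single arrays left out. Apart from the construction of each alternative (fewer arrays, a stricter threshold), the cause was not tested. With 4 arrays a group, a single array decides calls near the threshold, and genes near the background gauge limit what can be seen of Cyp4a32 and of most other Cyp4 genes.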
